A study of Mus musculus with 6 samples.

Results

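In all, 10 genes of the growth hormone (GH) and STAT5 axis were followed in primary mouse hepatocytes before and after partial hepatectomy (PHx), an operation that takes out the larger part of the liver. They are Ghr, Stat5a, Stat5b, Socs2, Cish, Igf1, Igfals, Bcl6, Hsd3b5 and Elovl3, and they were taken by gene name from the 55450 genes in the count files. All 10 were found, and all 10 passed the filter on low counts that left 17037 genes for testing. Hsd3b5 and Elovl3 were chosen by their counts, as being among the genes with the largest decreases between these same libraries, and the others as parts of the axis with that result known. The values of the 10 genes are therefore given as a description, with intervals and no p-values, and where one of them is said to be called this only records the side of the threshold it fell on and is no evidence.

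The libraries came from hepatocytes of male mice labelled C57BL/6 (C57BL/6J in the study's methods), fed a normal diet and 10 to 12 weeks old by the labels, a range that only partly overlaps the age at PHx in the methods. Cells were released by 2-step collagenase perfusion and their RNA was extracted with TRIzol. There were 3 libraries from undamaged liver (0 h) and 3 from liver taken 48 h after PHx, each from its own hepatocyte preparation. The 0 h mice had no sham operation, so the effects of surgery and of lost liver mass cannot be told apart, and the hour of day of collection is not given in the sources used here.

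GH reaches the liver in the blood and binds its receptor GHR, which activates the kinase JAK2. JAK2 phosphorylates the transcription factors STAT5A and STAT5B, of which STAT5B is the main form in liver. STAT5 then switches on the secreted growth factor IGF-1, its carrier subunit IGFALS, and the inhibitors SOCS2 and CISH, which dampen the receptor's signal. In male mice GH comes in pulses, and the pulses keep a group of male-biased genes high, Hsd3b5 and Elovl3 among them, and a group of female-biased genes low. BCL6 is a repressor that binds many of the same DNA sites as STAT5.

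STAT5 dimers recognise the palindrome TTCNNNGAA, and the BCL6 consensus is close to its narrower form TTCCTNGAA. RefSeq promoter windows on GRCm38.p6, from 250 bases before to 50 after an annotated start, were found for 8 of the 10 genes, in 14 windows. Elovl3 and Socs2 had no window in the table used here. The palindrome, which reads the same on both strands, was in windows of Cish, Bcl6 and Igfals, which are 3 of the 8 genes, against 9.55% of all 27025 genes with windows. Counted by window, it was in 5 of 14, against 8.3% of all windows. In the lists described below, it was in windows of 1 of 13 male-biased genes (7.69%) and 2 of 14 genes of GHR signalling (14.3%). The narrower form, searched on both strands and contained in the palindrome, was also in windows of Cish, Bcl6 and Igfals, against 1.86% of all genes. It was in windows of 1 of the 13 male-biased genes and 1 of the 14 genes of GHR signalling. Windows of Ghr, Stat5a, Stat5b, Igf1 and Hsd3b5 held neither, which says only that these letters are absent from those stretches. The stretches around the matches are shown because the targets of STAT5 are followed here, with each palindrome in capitals, 5′ to 3′ on the gene's strand. The Socs3 stretch is added because Socs3, another inhibitor of GHR signalling, is described with these genes. In Cish the first match begins at the RefSeq start, which lies inside the GENCODE gene used for counting, in an exon. In Bcl6 the matches begin 118 bases before one start, and 168, 122 and 88 bases before another. In Igfals they begin 236 and 58 bases before separate starts, and in Socs3 the match begins 154 bases before the start. The second Bcl6 start, both Igfals starts and the Socs3 start also lie inside their GENCODE genes.
Cish, chr9:107296654-107296683, plus strand: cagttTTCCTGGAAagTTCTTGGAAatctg
Bcl6, chr16:23988942-23988990, minus strand: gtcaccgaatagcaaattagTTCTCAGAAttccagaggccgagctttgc
Bcl6, chr16:23981357-23981457, minus strand: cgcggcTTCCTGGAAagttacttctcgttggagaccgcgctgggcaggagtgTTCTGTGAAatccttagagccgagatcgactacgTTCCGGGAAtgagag
Igfals, chr17:24877594-24877636, plus strand: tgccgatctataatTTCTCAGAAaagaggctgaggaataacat
Igfals, chr17:24878153-24878201, plus strand: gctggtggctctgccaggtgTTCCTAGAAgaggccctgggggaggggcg
Socs3, chr11:117969492-117969540, minus strand: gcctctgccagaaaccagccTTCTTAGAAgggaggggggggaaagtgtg

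Each library held 31419443 to 36346220 gene counts at 0 h and 31684152 to 33093006 at 48 h. Levels are given as CPM, counts scaled to a common library total, after TMM normalization, and changes as the log2 fold change of 48 h over 0 h from edgeR's quasi-likelihood fit. The 20 hepatocyte markers summed to 135692 to 155023 CPM at 0 h and 93152 to 123020.1 CPM at 48 h, and the 12 macrophage markers to 90.1 to 135 CPM and 123 to 153 CPM. The 12 sinusoidal endothelial markers summed to 277 to 427 CPM at 0 h and 199 to 220.3 CPM at 48 h, and all 12 were lower at 48 h. Of the 20 hepatocyte markers, 2 were higher and 7 lower, or 3 and 9 by DESeq2, and of the 12 macrophage markers 3 were higher and 1 lower, where 21.4% of all genes tested were higher and 19.3% lower. The 10 stellate cell markers summed to 115 to 179 CPM and 79.8 to 101 CPM, with 2 higher and 2 lower, and the 8 cholangiocyte markers to 35 to 63.1 CPM and 46.9 to 58.5 CPM, with 3 tested and 1 higher. The 10 lymphocyte and neutrophil markers stayed under 1 CPM in sum in every library, and none of them was tested. In bulk RNA, fewer cells of a type and less RNA per cell cannot be told apart, and the part of other cell types in the values that follow was not tested.

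At 48 h, 6 of the 10 genes were called lower at an adjusted p under 0.05, none was called higher and 4 were not called. Among all genes tested, 19.3% were called lower (3288) and 21.4% higher (3638), or 2110 and 5308 when scaled by library size alone, and since the same contrast chose the genes, nothing is read from their count. Of the 10, 0 were higher at an unadjusted p under 0.05, and DESeq2 also called 6 lower and 0 higher. The 48 h libraries lay wholly below the 0 h libraries in the same number of genes, 6 of 10, against 25.0% of all genes tested, and wholly above in 0, against 27.8%. The median log2 fold change of the 10 genes was -0.92, and that of all genes tested was -0.00.

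**Figure D1:**
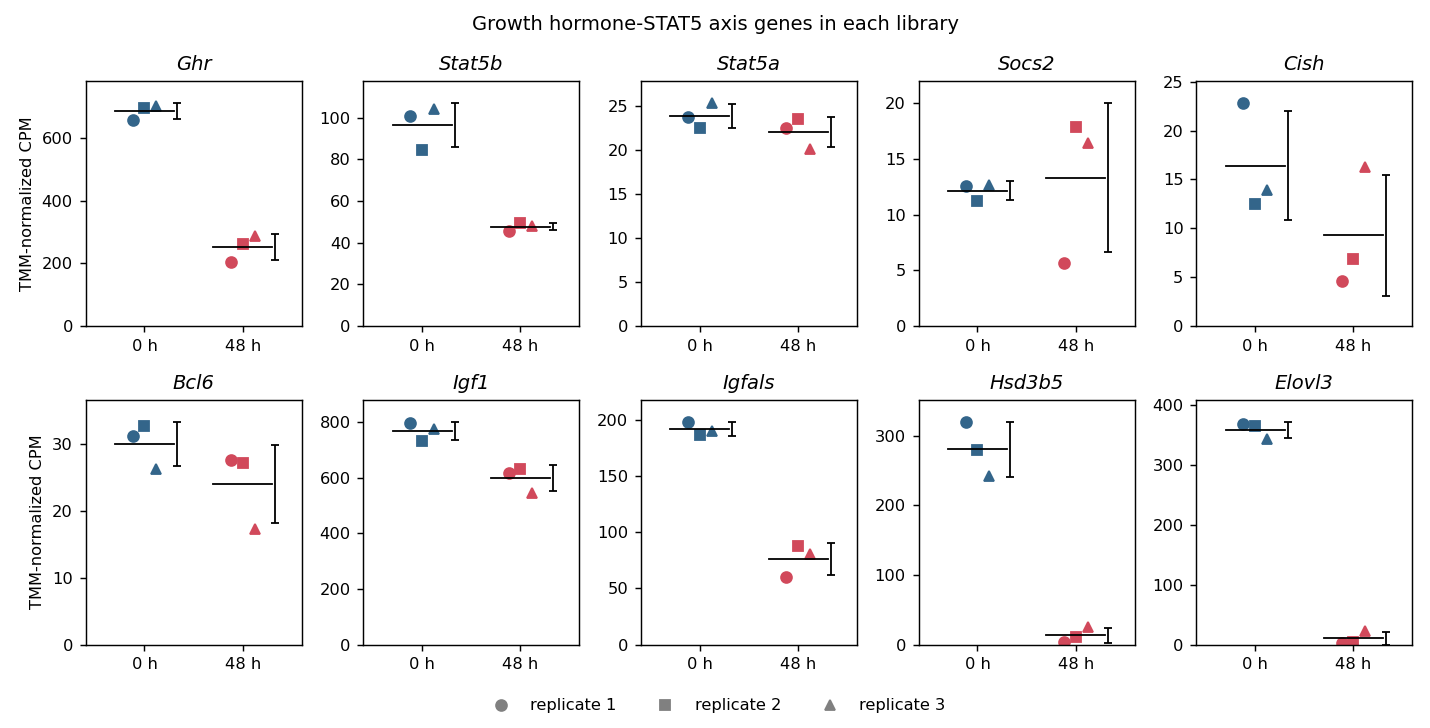
TMM-normalized CPM of the 10 genes in each library, with 1 panel per gene, a linear axis from 0, horizontal lines at the group means and bars of 1 SD (n = 3). Elovl3 and Hsd3b5 lie at 342 to 367 CPM and 242 to 320.0 CPM at 0 h and at 3.18 to 23.1 CPM and 3.92 to 25.4 CPM at 48 h, and the groups overlap in Stat5a, Socs2, Cish and Bcl6.

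The receptor was lower after PHx. Ghr (ENSMUSG00000055737.12, chromosome 15, 3317760 to 3583492, minus strand) was at 657, 697 and 704 CPM in 0 h replicates 1 to 3 and at 206, 262 and 288 CPM in 48 h replicates 1 to 3. The groups did not overlap, and the highest library at 48 h was far below the lowest at 0 h. The mean went from 686 ± 25.2 CPM to 252 ± 41.8 CPM (SD, n = 3), a log2 fold change of -1.45 (SE 0.149, 95% interval -1.778 to -1.116), which left 36.7% of the 0 h mean.

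The STAT5 genes lie side by side on chromosome 11. The intervals of their changes do not overlap, which is a description and no test of their difference. Stat5b (ENSMUSG00000020919.11, chromosome 11, 100780731 to 100850724, minus strand) was at 101, 84.7 and 104 CPM at 0 h and at 45.8, 49.5 and 47.9 CPM at 48 h. Its groups were apart, and its 48 h libraries were the closest together of any of the 10 genes at 48 h, with a coefficient of variation of 3.84%. The log2 fold change of Stat5b was -1.02 (SE 0.111, 95% interval -1.264 to -0.770). Stat5a (ENSMUSG00000004043.14, chromosome 11, 100859351 to 100885169, plus strand) was at 23.8, 22.5 and 25.3 CPM at 0 h and at 22.5, 23.5 and 20.1 CPM at 48 h. Its groups overlapped, and the log2 fold change was -0.12 (SE 0.109, 95% interval -0.357 to 0.127). Without a normalization factor the sign of Stat5a turned, to 0.09, while Stat5b stayed lower at -0.81. Per kilobase of exon, the level of Stat5b was 5.2 ± 0.324 times that of Stat5a at 0 h, from 4.84 to 5.47, and 2.8 ± 0.236 times at 48 h, from 2.62 to 3.07 (SD, n = 3). This ratio is taken within a library and is free of the normalization factor. Of the 50-base stretches of Stat5b transcripts, 11% also occur in Stat5a, and 8.21% of those of Stat5a occur in Stat5b, and reads from those stretches are uncertain.

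The feedback inhibitors varied more between the 48 h libraries than between those at 0 h. Socs2 (ENSMUSG00000020027.18, chromosome 10, 95385362 to 95417180, minus strand) was at 12.6, 11.2 and 12.7 CPM at 0 h and at 5.64, 17.9 and 16.4 CPM at 48 h. The 48 h libraries lay on both sides of the 0 h libraries, with replicate 1 below all of them and the other two above. The mean was 12.2 ± 0.832 CPM at 0 h and 13.3 ± 6.68 CPM at 48 h (SD, n = 3), a log2 fold change of 0.13 (SE 0.327, 95% interval -0.596 to 0.854). With 48 h replicate 1 left out, Socs2 was called higher, at 0.49. Cish (ENSMUSG00000032578.7, chromosome 9, 107296026 to 107302784, plus strand) was at 22.8, 12.5 and 13.9 CPM at 0 h and at 4.63, 6.88 and 16.3 CPM at 48 h. Replicate 3 at 48 h was within the 0 h range, and the other two were below it. The log2 fold change of Cish was -0.82 (SE 0.393, 95% interval -1.696 to 0.047), and with 48 h replicate 3 left out it was -1.50 and called lower, as it was at -0.84 with no filter on low counts. Genes on the opposite strand overlap 11.5% of the exon bases of Cish, and whether strand was used in counting is not given in the sources used here, so part of its count could be theirs.

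Bcl6 (ENSMUSG00000022508.5, chromosome 16, 23965052 to 23988852, minus strand) was at 31.1, 32.6 and 26.3 CPM at 0 h and at 27.6, 27.2 and 17.3 CPM at 48 h. The groups overlapped, with replicate 3 the lowest at each time point. The log2 fold change of this repressor was -0.32 (SE 0.173, 95% interval -0.706 to 0.063), and it was not called in any alternative analysis.

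Both secreted products were lower at 48 h, the carrier subunit by more than the hormone. Igf1 (ENSMUSG00000020053.18, chromosome 10, 87858265 to 87937042, plus strand) was at 799, 734 and 775 CPM at 0 h and at 616, 634 and 547 CPM at 48 h. The groups did not overlap, though the gap between them was small next to the level. The mean went from 769 ± 33 CPM to 599 ± 45.8 CPM (SD, n = 3), a log2 fold change of -0.36 (SE 0.128, 95% interval -0.646 to -0.076). The call of Igf1 was lost when any library other than 0 h replicate 2 was left out, with no filter on low counts, and without a normalization factor, where the change was -0.16. Igfals (ENSMUSG00000046070.9, chromosome 17, 24865997 to 24882010, plus strand), the acid-labile subunit that keeps IGF-1 in long-lived complexes in the blood, was at 198, 186 and 190.2 CPM at 0 h. At 48 h Igfals was at 60.1, 87.9 and 80.1 CPM, and each of these was under every 0 h library. Its log2 fold change was -1.33 (SE 0.145, 95% interval -1.655 to -1.010), and 39.7% of the 0 h mean was left, against 77.8% for Igf1. The 95% intervals of the changes of Igfals and Igf1 do not overlap, which is a description and no test of their difference.

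The male-biased genes had the lowest log2 fold changes of the 10, as their choice implies. Hsd3b5 (ENSMUSG00000038092.6, chromosome 3, 98618634 to 98630252, minus strand), a member of the 3-beta-hydroxysteroid dehydrogenase family that acts on steroids in male liver, was at 320.0, 279 and 242 CPM at 0 h. At 48 h it was at 3.92, 10.3 and 25.4 CPM, from 132, 369 and 889 reads. All of the 48 h libraries were far under the 0 h range. The log2 fold change of Hsd3b5 was -4.41 (SE 0.527, 95% interval -5.575 to -3.236), its mean at 0 h was 21.2-fold higher, and without 48 h replicate 3 the change was -5.29. Elovl3 (ENSMUSG00000038754.5, chromosome 19, 46131897 to 46135694, plus strand), which elongates very long chain fatty acids, was at 367, 364 and 342 CPM at 0 h and at 3.18, 4.78 and 23.1 CPM at 48 h, where it had 107, 171 and 810 reads. It was nearly level across the 0 h libraries, with a coefficient of variation of 3.82%, and uneven at 48 h, with 107%. The log2 fold change of Elovl3 was -5.11 (SE 0.634, 95% interval -6.515 to -3.700), its mean at 0 h was 34.5-fold higher, and without 48 h replicate 3 the change was -6.48. Of all genes tested, 6 had a lower log2 fold change than Elovl3 and 16 a lower one than Hsd3b5.

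**Figure D2:**
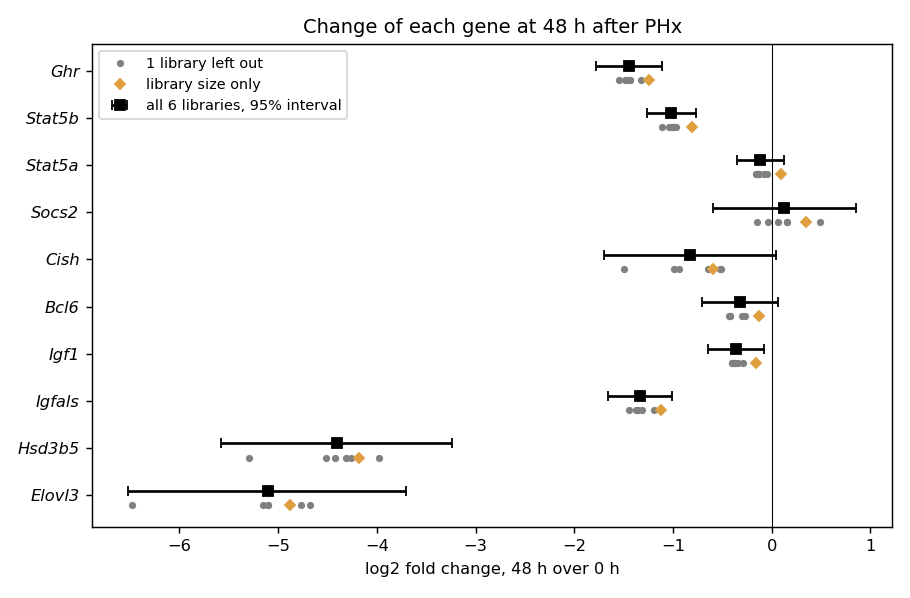
Log2 fold change of 48 h over 0 h for the 10 genes, with black squares and bars for the estimate from all 6 libraries and its 95% interval, grey points for fits with 1 library left out and orange diamonds for scaling by library size alone. Elovl3 and Hsd3b5 stand at -5.11 and -4.41, Ghr, Igfals and Stat5b between -1.45 and -1.02, and the intervals of Stat5a, Socs2, Cish and Bcl6 include 0.

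Per kilobase of exon, the order of levels within the group was changed at 48 h. At 0 h Hsd3b5 and Elovl3 were level at 181 CPM per kilobase each and were the highest. Igf1 at 77.7 and Ghr at 75.8 came next, with SDs of 3.34 and 2.78 that exceed the gap between them, and then Igfals at 60.4 and Stat5b at 17.4. At 48 h Igf1 was the highest at 60.5 CPM per kilobase, followed by Ghr at 27.8 and Igfals at 24, whose SDs of 4.62 and 4.53 exceed the gap between them. Stat5b at 8.62, Hsd3b5 at 8.53 and Elovl3 at 5.25 followed, and the SDs of 7.12 for Hsd3b5 and 5.61 for Elovl3 leave the order of these genes undecided. Bcl6, Stat5a, Cish and Socs2 stayed between 1.28 and 4.48 CPM per kilobase at both time points.

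Among the 48 h libraries, replicate 1 was the lowest in 7 of the 10 genes, against 34.4% of all genes tested. Replicate 3 was the highest in 4 genes, Ghr, Cish, Hsd3b5 and Elovl3, a share near the 34.0% of all genes tested. The highest 48 h library was 7.28 times the lowest for Elovl3, 6.48 times for Hsd3b5, 3.51 times for Cish and 3.17 times for Socs2. At 0 h the same ratios were 1.07, 1.32, 1.82 and 1.13. The coefficient of variation was larger at 48 h than at 0 h in 9 of the 10 genes, Stat5b being the exception, against 41.5% of all genes tested. The 10 genes are measured in the same libraries, so these counts are not separate observations, and nothing is read from them. Over the 6 libraries, among the 7563 genes that averaged 10 CPM or more, the gene whose centred log2 CPM was nearest to that of Elovl3 was Hsd3b5, and the nearest to Hsd3b5 was Elovl3 (root mean squared difference 0.535, Pearson r 0.994). The predicted gene Gm31583 and Sucnr1, a receptor for succinate, came next for both, at 0.684 and 0.755 from Hsd3b5 and at 1.097 and 1.139 from Elovl3. Nearest to Igf1 were Washc1, Sdha and Rptor, at 0.031, 0.033 and 0.035. Nearest to Socs2 were Cyp2c55, Ccn1 and Bdh1, at 0.214, 0.245 and 0.275. These likenesses are over 6 libraries in 2 groups and describe these libraries only. The distance takes in the difference between the groups, by which Elovl3 and Hsd3b5 were chosen, so their match is no evidence of a link.

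Among 21 other genes of GHR signalling, 5 were higher at 48 h, 2 were lower and 14 were not called, with a median log2 fold change of 0.06, against 21.4% higher and 19.3% lower among all genes tested, so that the share higher is near the background and the share lower is below it. When scaled by library size alone, 9 were higher and 1 lower. Jak2, the kinase bound to the receptor, was at 18 ± 0.192 CPM at 0 h and 18.7 ± 1.26 CPM at 48 h (SD, n = 3), a log2 fold change of 0.06 (95% interval -0.177 to 0.297, adjusted p = 0.684). The largest rise was that of Socs3, the SOCS family inhibitor that also answers to interleukin 6, at 12.7, 9.83 and 10.8 CPM at 0 h and 53.4, 40 and 36.6 CPM at 48 h. Its log2 fold change was 1.97 (SE 0.162, adjusted p = 7.8e-06). The phosphatase gene Ptpn1, whose product dephosphorylates JAK2, rose by 0.89 (SE 0.098, adjusted p = 6.23e-05). Stat3, the transcription factor downstream of interleukin 6, rose by 0.82 (SE 0.13, adjusted p = 0.000677). Irs2, an adaptor of insulin and GH receptors, fell by 1.12 (SE 0.247, adjusted p = 0.00465). The kinase gene Lyn was also lower, with a log2 fold change of -0.38 (SE 0.111, adjusted p = 0.0188), a call that was lost without 48 h replicate 1 or 2, leaving 1 gene called lower in each case, and when scaled by library size alone. Prlr, the prolactin receptor, had a log2 fold change of -0.27 and an adjusted p of 0.37.

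Of the 6 SOCS genes outside the axis genes, Socs3 was the only one called, which is no more than the 21.4% of all genes called higher, although Socs4 and Socs6 were called higher with scaling by library size alone, and Socs7 lower with TMM factors from protein-coding genes and without 48 h replicate 3. Socs4, Socs5, Socs6 and Socs7 had log2 fold changes of 0.20, -0.32, 0.25 and -0.27, with adjusted p from 0.087 to 0.155, and Socs1, at 0.445 and 0.555 CPM, was low in both groups. In the rest of the STAT family, Stat3 was called higher and Stat6 lower, 1 of 4 tested in each direction, near the 21.4% and 19.3% of all genes. Stat6 had a log2 fold change of -0.33 (SE 0.094, adjusted p = 0.0179) and lost its call without 48 h replicate 1 or 2 and with scaling by library size alone. Stat2 had -0.11 (adjusted p = 0.497), and Stat4 was not tested, with at most 1 read in a library.

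IGF-1 travels bound to IGF binding proteins. Of 14 genes for these proteins, IGF receptors, the ligand IGF-2, and the proteases that free IGF with the stanniocalcins that inhibit them, 8 had enough reads to be tested and 6 of these were lower at 48 h, against 19.3% of all genes tested, with a median log2 fold change of -0.94. None was higher, at an adjusted or an unadjusted p under 0.05, or by DESeq2. Igfbp1, an acutely regulated binding protein made by hepatocytes, was at 381, 249.5 and 342 CPM at 0 h and at 128, 67.6 and 25.2 CPM at 48 h. Its log2 fold change was -2.14 (SE 0.447, adjusted p = 0.00346), and -2.80 without 48 h replicate 1. Igfbp3, whose product forms the ternary complex with IGF-1 and IGFALS and which in liver is expressed mostly by nonparenchymal cells, fell by 2.74 (SE 0.261, adjusted p = 2.29e-05). Its level was low, at 3.98 ± 0.97 CPM at 0 h and 0.593 ± 0.0262 CPM at 48 h (SD, n = 3). Igfbp5 fell by 1.40 (SE 0.364, adjusted p = 0.0113), although its groups overlapped. The endothelial markers, 12 of 12 lower with sums of 277 to 427 CPM at 0 h and 199 to 220.3 CPM at 48 h, moved in the same direction, and their part in these decreases was not tested.

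Among 20 other male-biased genes that depend on GH pulses and STAT5B, 14 were lower at 48 h, against 19.3% of all genes tested, 1 was higher and 5 were not called, with a median log2 fold change of -1.21. When 0 h replicate 1 was left out, 9 were lower. This list, like the other lists of GH-related genes, was chosen with earlier results of these data known, so its counts are a description. Cyp4a12a, a cytochrome P450 that hydroxylates fatty acids, was at 532, 316 and 672 CPM at 0 h and at 61, 55.2 and 133 CPM at 48 h. Its log2 fold change of -2.61 (SE 0.362, adjusted p = 0.000276) was the most negative of the list, and less negative than those of Hsd3b5 and Elovl3. Mup21, of the major urinary protein family, was at 135, 132 and 119.7 CPM and then at 13.7, 22.3 and 49.6 CPM, a log2 fold change of -2.17 (SE 0.363, adjusted p = 0.000901). Members of this family are near-identical in sequence, so reads may be split or lost between them. The several Mup genes on this list are therefore not separate observations. Ugt2b38, a glucuronosyltransferase gene, had a log2 fold change of -2.03 (SE 0.545, adjusted p = 0.0131), and its call was lost without 0 h replicate 1. Without 48 h replicate 3, the changes of Mup21 and Ugt2b38 were -2.83 and -3.29. In Cyp4a12a, Mup21 and Ugt2b38 alike, 48 h replicate 3 was the highest of the 48 h libraries, as it was for Hsd3b5 and Elovl3. The gene called higher was Moxd1, at 2.04, 0.0967 and 0 CPM at 0 h and 12.1, 0.0559 and 16.6 CPM at 48 h. Its log2 fold change was 3.79 (SE 1.317, adjusted p = 0.0412), but its groups overlapped, the call was lost by DESeq2 and without 0 h replicate 2 or 3, and too few libraries had counts to test it when 0 h replicate 1, 48 h replicate 1 or 48 h replicate 3 was left out. By DESeq2, 1 other gene of the list was called higher.

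Of 29 female-biased genes, 17 could be tested, and 8 had at most 3 reads in every library. Among those tested, 9 were higher at 48 h, against 21.4% of all genes tested, 2 were lower and 6 were not called, with a median log2 fold change of 1.45. Prom1 passed the filter only through its 48 h libraries and so had to differ, and without it 8 of 16 were higher and 2 lower, with a median of 1.21. The summed level of the list was 48.8 to 76.2 CPM at 0 h and 163 to 254 CPM at 48 h, of which Trim24 alone made up 20.8 to 26.3 CPM and 92.9 to 149.7 CPM. Nipal1, a magnesium transporter gene, was at 0.987, 2.74 and 2.53 CPM and then at 33.3, 31 and 9.71 CPM, a log2 fold change of 3.55 (SE 0.473, adjusted p = 0.000211). Acot3, a peroxisomal acyl-CoA thioesterase gene, went from 0.451 ± 0.221 CPM to 4.9 ± 3.26 CPM (SD, n = 3), a log2 fold change of 3.42 (SE 0.561, adjusted p = 0.000808), and 2.81 without 48 h replicate 2. Prom1 had 3 reads in all at 0 h and 83 at 48 h, a ratio of 24.7 with an exact 95% interval of 8.17 to 122 that covers counting error only. Against these, the female-biased cytochrome P450 genes Cyp2c40 and Cyp2c69 were low at 0 h, at 3.6 and 2.09 CPM, and lower still at 48 h, with log2 fold changes of -2.03 (SE 0.313, adjusted p = 0.000543) and -2.01 (SE 0.306, adjusted p = 0.000507).

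**Figure D3:**
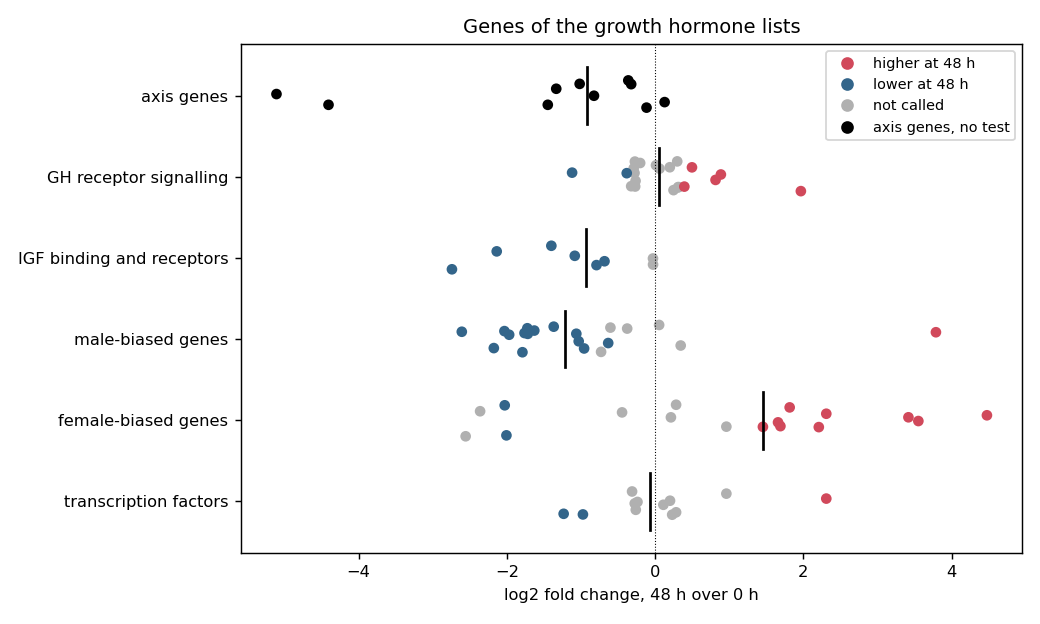
Log2 fold change of 48 h over 0 h of each tested gene in the 10 axis genes and in 5 lists of related genes, 1 point per gene, coloured by its call in edgeR's test, with a vertical bar at each list's median and axis genes in black because no test is given for them. The median is -1.21 for male-biased genes, 1.45 for female-biased genes, or 1.21 without Prom1, and 0.06 for genes of GHR signalling.

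Of 12 transcription factors tied to the GH response of liver, 1 was higher at 48 h and 2 were lower, with a median log2 fold change of -0.06, and neither share exceeds that of all genes tested, 21.4% and 19.3%. Trim24, a coregulator of nuclear receptors that is also on the female-biased list, was at 22.8, 20.8 and 26.3 CPM at 0 h and at 92.9, 149.7 and 105 CPM at 48 h, a log2 fold change of 2.31 (SE 0.18, adjusted p = 5.33e-06). Onecut1, which encodes HNF6, fell by 1.23 (SE 0.345, adjusted p = 0.0161), and its call was lost without 0 h replicate 1 or 48 h replicate 2. Cebpa, a factor of hepatocyte differentiation, had a log2 fold change of -0.97 (SE 0.213, adjusted p = 0.00449). Hnf4a, a central factor of hepatocyte identity, was at 796 ± 61 CPM and 935 ± 76.3 CPM (SD, n = 3), with a log2 fold change of 0.23 and an adjusted p of 0.2. Cux2, a female-biased repressor, was low at 0.658 and 1.29 CPM, with a log2 fold change of 0.96 and an adjusted p of 0.106, and was called higher without 48 h replicate 3 and with no filter on low counts. Tox had a log2 fold change of 0.28 and an adjusted p of 0.203. Hnf4a and Tox were called higher when scaled by library size alone.

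The relatives of Hsd3b5 and Elovl3 show how the rest of each enzyme family stood. The Hsd3b genes encode enzymes that are close in sequence, and beside Hsd3b5 only Hsd3b3 and Hsd3b2 of the other 6 could be tested, both of which were lower at 48 h, against 19.3% of all genes tested. Hsd3b3 went from 312 ± 33.2 CPM to 107 ± 36.7 CPM (SD, n = 3), a log2 fold change of -1.55 (SE 0.231, adjusted p = 0.000443). Hsd3b2 went from 59.6 ± 3 CPM to 21.6 ± 6.59 CPM, a log2 fold change of -1.46 (SE 0.192, adjusted p = 0.000191). Hsd3b5 was 3.75 ± 0.731 times Hsd3b3 per kilobase of exon at 0 h and 0.458 ± 0.274 times at 48 h (SD, n = 3), and the ranges, 2.9 to 4.19 and 0.246 to 0.768, did not overlap. Of the 50-base stretches of Hsd3b5, 21.2% occur in another gene, 18.2% in the gene Gm10681, which had 0 to 1 reads per library, so that some reads of Hsd3b5 may have been lost. Summed over Hsd3b1 to Hsd3b6, which is free of exchange within the family, the level was 698, 613.9 and 644.7 CPM at 0 h and 84.26, 151 and 189.5 CPM at 48 h, a log2 fold change of -2.20 (SE 0.251), and without Hsd3b5 the sum changed by -1.53. Hsd3b4, Hsd3b6 and Hsd3b7 are listed at 0 in all libraries, Hsd3b7 sharing most of its exon bases with an overlapping gene on its strand, and Hsd3b1 had at most 2 reads in any.

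Of the 6 fatty acid elongase genes other than Elovl3, 4 could be tested and 2 were lower at 48 h, against 19.3% of all genes tested. Elovl5, which elongates polyunsaturated fatty acids, was at 464, 661 and 695 CPM at 0 h and at 251, 249 and 257 CPM at 48 h, a log2 fold change of -1.26 (SE 0.162, adjusted p = 0.000168). Elovl2, which acts on longer polyunsaturated chains, had a log2 fold change of -0.60 (SE 0.137, adjusted p = 0.00551), and its call was lost when scaled by library size alone. Elovl1 and Elovl6 had log2 fold changes of -0.13 and -0.08, with adjusted p of 0.465 and 0.755. Per kilobase of exon, Elovl3 was 1.09 ± 0.282 times Elovl5 at 0 h, from 0.877 to 1.41, and 0.0723 ± 0.0763 times at 48 h, from 0.0225 to 0.16 (SD, n = 3).

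**Figure D4:**
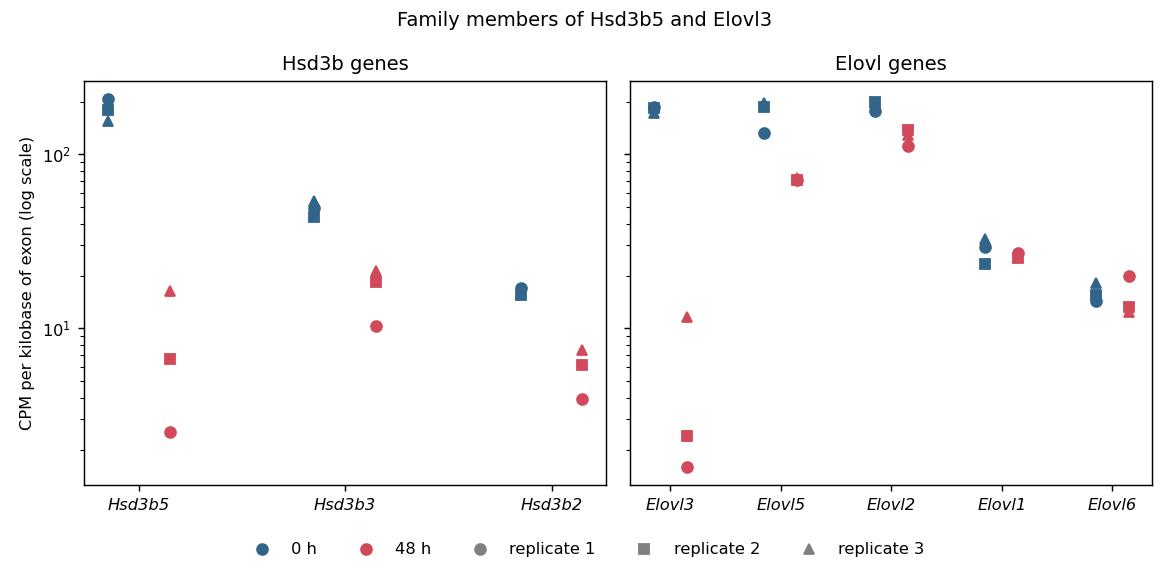
CPM per kilobase of exon, on a log axis, of the tested Hsd3b and Elovl genes in each library, with blue for 0 h, red for 48 h and a marker shape for each replicate. Hsd3b5 lies above Hsd3b3 in all 0 h libraries and below it in all 48 h libraries, and Elovl3 is at the level of Elovl5 at 0 h and far below it at 48 h.

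Transcripts of Elovl3 are known to cycle over the day in mouse liver, and genes of the circadian clock were therefore counted as well. Of 17 clock genes, 7 were higher at 48 h and 4 lower, against 21.4% and 19.3% of all genes tested, with a median log2 fold change of 0.38 and summed levels of 825 to 1021 CPM at 0 h and 825 to 1124 CPM at 48 h. Npas2, an activator of the clock, fell by 4.86 (adjusted p = 2.31e-05), and Arntl, which encodes BMAL1, fell by 1.96 (adjusted p = 0.000989). The repressor gene Nr1d1 had a log2 fold change of -1.48 (adjusted p = 0.000139). Ciart rose by 3.46 (adjusted p = 3.97e-06), Per3 by 1.91 (adjusted p = 1.53e-05) and Dbp, an output of the clock, by 1.62 (adjusted p = 0.00311). Dbp was at 22, 60 and 68.6 CPM in 48 h replicates 1 to 3, and Arntl at 12.6, 7.22 and 4.08 CPM. The part of the hour of collection in the values of Elovl3, Hsd3b5 and the other genes was not tested.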

How the data were processed

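The authors deposited raw counts of reads per gene for each of the 6 libraries, without normalization. The submitters' processing notes name FastQC 0.11.5, Trim Galore 0.6.4, STAR 2.6, HTSeq 0.12.4, DESeq2 and the build mm10, with no word on strand in counting. All 55450 identifiers matched GENCODE M21 (GRCm38), which gave names, coordinates and exon lengths. Reads on no gene made up 24.3% to 32.7% of the reads listed and were left out, as were ambiguous reads, 4.27% to 5.29%. At this depth 3 counts are 0.0825 to 0.0955 CPM of the raw library totals, before TMM normalization, a floor for counting error only.

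Groups and replicate numbers were read from the sample labels. Genes that reached 10 counts in 3 or more libraries were tested in R 4.3.3 with edgeR 4.0.16 (TMM, quasi-likelihood test, time as the only term), with Benjamini-Hochberg adjustment over 17037 genes and a threshold of 0.05. The script was tested on simulated data. DESeq2 1.42.0, other normalizations and filters, a fold threshold, a replicate block and leaving out each library were the alternatives. The sum of the Hsd3b genes without Hsd3b5, and the female-biased list without genes counted at 1 time point only, were added after seeing the data. Replicates of a group differed by more than counting noise.

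The 10 genes and all lists were chosen with earlier results of these data known. Beside the 10 genes, the text names the 3 largest rises and falls called in each list, fixed members of the signalling, transcription factor, IGF and gene family lists, and the 3 genes nearest in pattern to Elovl3, Hsd3b5, Igf1 and Socs2. A gene that this rule names is not reported here. Cell type markers and clock genes were drawn up from general knowledge. Promoter windows came from RefSeq on GRCm38.p6.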

Additional observations from a re-analysis of the deposited data

How the results depend on the processing

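The counts limit the low genes most: no gene of the axis had fewer than 107 reads in a library, while Prom1 and Moxd1 had libraries at or near 0. The correlations of same-numbered deviations were 0.0335, -0.0674 and -0.138, and only the libraries numbered 1 correlated best with their own number. These values show no clear pairing by the labels' replicate numbers, but with 3 libraries a group they cannot exclude a shared batch. With the numbers as a replicate block, 3237 genes were higher and 2884 lower, Igf1 and Stat6 lost their calls, and 4 female-biased genes in place of 2 were lower, as also with no filter on low counts. The other calls of named genes were kept under the block.

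Scaling by library size alone moved the median log2 fold change of all genes by 0.20. It left 2110 genes lower, and in GHR signalling 9 higher and 1 lower. It made 2 male-biased genes higher. It gave -1.24 for Ghr, 0.09 for Stat5a, -0.81 for Stat5b, -0.16 for Igf1 and -1.12 for Igfals, and it turned the uncalled Elovl1, Elovl6 and Stat2 to 0.08, 0.11 and 0.09. TMM factors from protein-coding genes gave 4 genes of GHR signalling lower. A log2 fold change of at least 1 was reached by 1651 genes called higher and 1353 called lower. The Hsd3b sum without Hsd3b5 was -1.53.

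With 1 library left out, 0 to 1 axis genes were higher, 1 to 3 genes of GHR signalling lower, 0 to 1 male-biased genes higher and 9 to 17 lower, and Elovl3 lay between -6.48 and -4.68. The uncalled Elovl6 lay between -0.32 and 0.06 and Socs1 between -0.04 and 0.48. The cause of these shifts was not tested.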
